A study of Mus musculus with 140 samples.

Results

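Krt7, Krt8, Krt18 and Krt19 are the keratins of simple, single-layered epithelia. Keratins build the intermediate filaments of epithelial cells from pairs of a type II chain (Krt7, Krt8) and a type I chain (Krt18, Krt19). In the mouse embryo Krt8 and Krt18 are the first keratins made and mark the outer trophectoderm layer of the blastocyst, and pluripotent inner cells hold little of them. The 4 genes were chosen by the rise of their signal in these same time courses, so their signals, changes and order are given as a description, with no test. All probe sets naming only 1 of the 4 genes were taken, which gave 6 of 45265 probe sets and 4 of 18193 named genes. All 6 are on the A array of the pair used and none is on the B array, and all 6 passed the filter on low values.

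The cells were CCE mouse embryonic stem (ES) cells of a male 129/Sv strain. In 7 courses they carried a vector expressing a short hairpin RNA (shRNA) against Nanog, Oct4 (encoded by Pou5f1), Sox2, Esrrb, Tbx3, Tcl1 or Mm343880, a transcript given by its cluster number, with the same vector lacking an shRNA (empty H1P vector) as the control course. These cells were kept in leukemia inhibitory factor (LIF, 1000 units/ml), and green fluorescent cells were sorted every day from day 0, which was 48 hours after transduction. The eighth course was grown without LIF in 5 µM retinoic acid, and its labels mention neither vector nor sorting, so retinoic acid, loss of LIF and lack of a vector cannot be told apart against the empty vector. Every course had 1 RNA sample per day from day 0 to day 7 (to day 6 for Mm343880 shRNA and retinoic acid as analysed here), 70 samples in all. There was no second transduction, hence days stand in for replicates, and the number of arrays limits the precision. Array medians were 236 to 383 on the A array and 64.5 to 129 on the B array. As a check of the labels, in 6 courses the signal of the targeted gene was under that of the empty vector on each of the 8 days, by 2.69-fold (Esrrb) to 6.78-fold (Nanog) over the course means, and the Mm343880 target was not analysed here.

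Krt8 and Krt18 lie side by side on mouse chromosome 15, at the edge of the type II keratin cluster next to Krt78 and Krt79. Krt7 is also on chromosome 15, and Krt19 is on chromosome 11 between Krt15 and Krt9 in the type I cluster. The promoter stretches of Krt8, Krt18 and Krt7 (250 bases before to 50 after the annotated start, RefSeq, build GRCm38.p6, gene strand, 5′ to 3′) are shown because these genes moved together. Capitals mark every match to 9 short motifs searched on both strands: the TATA box TATAAA, the GC box GGGCGG, the box CCAAT, the AP-1 site TGANTCA, the AP-2 site GCCNNNGGC, the TEAD site GGAATG, the GATA site AGATAA, the octamer ATTTGCAT and the Ets site CCGGAA.
Krt8, chr15:102004293-102004592, minus strand: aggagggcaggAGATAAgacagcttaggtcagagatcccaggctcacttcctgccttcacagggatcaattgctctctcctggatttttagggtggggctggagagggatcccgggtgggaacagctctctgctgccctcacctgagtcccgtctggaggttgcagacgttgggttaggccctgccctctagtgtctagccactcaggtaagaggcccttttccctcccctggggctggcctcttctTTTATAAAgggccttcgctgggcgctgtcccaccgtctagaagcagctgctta
Krt18, chr15:102027966-102028265, plus strand: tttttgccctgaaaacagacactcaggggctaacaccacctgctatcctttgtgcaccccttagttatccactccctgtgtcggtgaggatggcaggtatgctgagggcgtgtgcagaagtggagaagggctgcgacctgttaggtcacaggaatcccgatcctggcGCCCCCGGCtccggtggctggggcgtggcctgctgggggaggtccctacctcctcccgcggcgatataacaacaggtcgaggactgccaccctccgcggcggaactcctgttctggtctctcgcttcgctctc
Krt7, chr15:101412153-101412452, plus strand: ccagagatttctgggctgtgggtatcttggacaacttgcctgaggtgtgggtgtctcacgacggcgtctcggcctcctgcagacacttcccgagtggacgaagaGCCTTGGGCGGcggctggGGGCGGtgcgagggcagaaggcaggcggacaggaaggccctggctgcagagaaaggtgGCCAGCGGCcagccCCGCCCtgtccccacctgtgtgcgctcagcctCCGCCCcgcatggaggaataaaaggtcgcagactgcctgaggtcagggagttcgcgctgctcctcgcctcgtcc
The Krt8 stretch held TATAAA on both strands, as 2 overlapping matches, and 1 AGATAA, which occur in 13.6% and 11.2% of 32851 promoter stretches of the same length. The Krt18 stretch held 1 AP-2 match, and the Krt7 stretch held 2 AP-2 matches, 1 of them overlapping the first of its 4 GC boxes. AP-2 matches were present in 16.6% of all stretches and GC boxes in 35.7%. No motif of the 9 was present in all 3 stretches. Their GC content was 58.0% (Krt8), 61.3% (Krt18) and 66.3% (Krt7), against a median of 52.7%. These are matches of letters only, and no factor binding was measured.

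Krt8 and Krt18, the pair that forms the first embryonic keratin filaments, rose in all 8 courses, starting on different days. Signals are MAS5 intensities on a linear scale. In the Sox2 shRNA course Krt8 (probe set 1420647_a_at) read 653.4, 3805.4, 12565.5, 18296.2, 20128.3, 19940.7, 18217.7 and 22100.3 on days 0 to 7. In the empty vector it read 589.8, 685.2, 442.5, 594.5, 1013.2, 1285.4, 2389.1 and 1409.5. The Sox2 shRNA course was therefore above every empty vector day from day 1, and by day 2 it had passed 50% of its highest signal. The Nanog shRNA course read 523.1, 1025.4, 1716.3, 7364.4, 13189.1, 26466.5, 24935.4 and 26616.7, and the Oct4 shRNA course 508.6, 1329.6, 2890.9, 9031.1, 13902.0, 15359.4, 18308.0 and 15595.6. Krt8 stood above every empty vector day from day 2 in the Oct4 shRNA course and from day 3 in the Nanog shRNA course.

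By this probe set and this measure, Krt8 rose later after knockdown of Esrrb, Tbx3, Tcl1 and Mm343880. With Esrrb shRNA the signals were 339.8, 529.1, 809.9, 1993.1, 5300.5, 15601.7, 17074.4 and 18807.1. With Tbx3 shRNA they were 340.9, 445.9, 442.5, 779.2, 1240.8, 7845.1, 11285.5 and 11209.4. These courses first exceeded every empty vector day on day 4 and on day 5. Tcl1 shRNA cells ran between 485.1 and 8390.6 and Mm343880 shRNA cells between 528.9 and 14263.7, both first above every empty vector day on day 5. Probe set 1435989_x_at gave day 3 for Nanog, Esrrb and Mm343880 shRNA alike, and 1423691_x_at gave days 2, 3 and 3. The first day at 50% of the highest Krt8 signal (1420647_a_at) was day 5 with Nanog shRNA, as in these 4 knockdowns. Retinoic acid gave a peak: 639.7, 1252.3, 4950.6, 10752.0, 7034.4, 4356.4 and 2751.7 on days 0 to 6, so that the last day held 25.6% of the highest. The same Krt8 signal was thus still high on the last day in the 7 knockdown courses (85.2% to 100% of the highest) and not with retinoic acid.

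**Figure D1:**
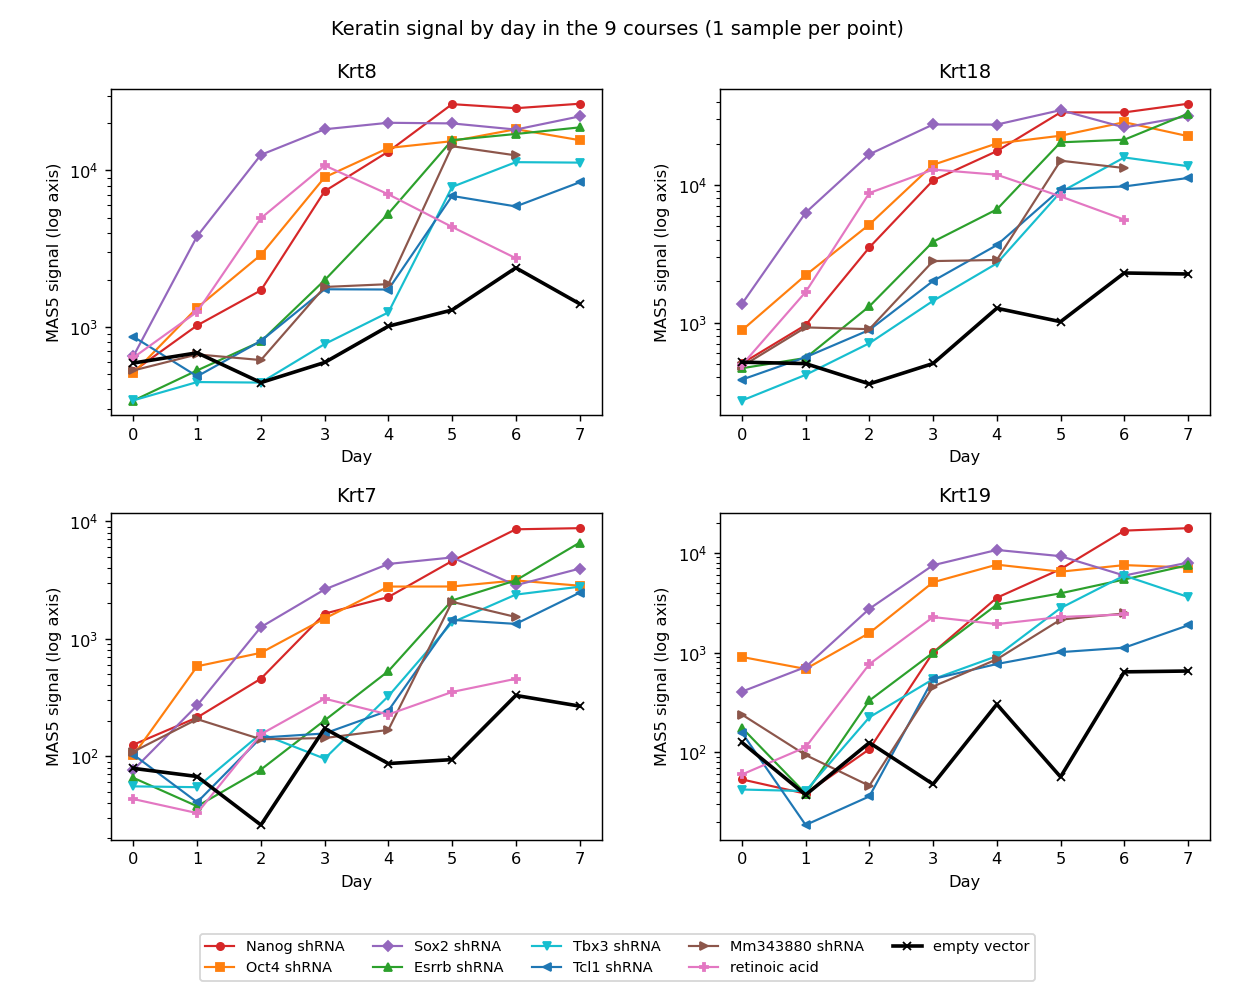
Signal of the 4 keratins (MAS5 intensity, log axis) against day in the 9 courses, 1 sample per point; the empty vector is the thick black line. The Sox2 shRNA line leaves the empty vector first for Krt8 and Krt18 and the Oct4 shRNA line first for Krt19 and Krt7. For Krt8, Krt18 and Krt7 the Esrrb, Tbx3, Tcl1 and Mm343880 shRNA lines step up between days 4 and 5. The Krt8 and Krt18 lines of retinoic acid turn down after day 3.

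Krt18, the partner chain of Krt8, followed the same courses day by day. Its signal was 1367.4, 6295.2, 16715.7, 27526.5, 27479.4, 34984.1, 26180.1 and 31602.4 with Sox2 shRNA, and 515.9, 503.5, 358.8, 504.5, 1271.7, 1015.3, 2294.2 and 2255.4 in the empty vector. Nanog shRNA cells ranged between 504.5 and 38929.6, the highest Krt18 signal of all 70 samples. With retinoic acid it peaked on day 3 at 12947.9, and its day 6 signal was 43.2% of that. Across the 70 samples the log2 signals of Krt8 and Krt18 had r = 0.983, and r = 0.929 after each course mean and each day mean was taken out. The pairs with Krt7 and Krt19 were looser, down to r = 0.896 between Krt7 and Krt19 (0.686 after course and day). All these points share samples, courses and array scaling, and the genes were chosen for rising together.

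Krt19, a small type I keratin, started at different levels in different courses. On day 0 it read 902.8 in the Oct4 shRNA course and 405.2 in the Sox2 shRNA course, against 125.2 in the empty vector. The other 6 courses lay between 42.2 and 238.5 on that day. On day 1 the Oct4 and Sox2 shRNA samples read 684.2 and 715.9, and the empty vector 37.3. Thus in the Oct4 shRNA course Krt19 was above every empty vector day (highest 652.4) from day 0, while Krt8 in that same sample (508.6) was below the empty vector's 589.8. Low MAS5 signals carry no order among themselves: 3 of the 9 day 0 samples and 5 of the 9 day 1 samples were under 63.1, the value added before taking logs.

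The later Krt19 days ranked the courses differently from Krt8 only at the lower end. Nanog shRNA cells read 53.3, 38.3, 107.1, 1001.5, 3547.4, 6868.6, 16733.1 and 17710.8, a rise that was still going on between days 5 and 6. The Oct4 shRNA course was flat from day 4 to day 7, between 6479.4 and 7622.2. In retinoic acid Krt19 read 59.7, 112.3, 765.3, 2270.3, 1930.3, 2274.7 and 2409.7, so unlike Krt8 and Krt18 it was highest on the last day. Tcl1 shRNA cells had the lowest Krt19 signals of the treated courses, with a mean of 965 ± 180 over days 4 to 6 (SD over 3 days), against 333 ± 293 in the empty vector.

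Krt7, a type II keratin of ducts and other simple epithelia, was low on day 0 in every course, between 43.2 and 125.4. With Sox2 shRNA it read 76.6, 270.9, 1256.4, 2626.0, 4328.7, 4917.2, 2853.4 and 3948.5. In the empty vector it read 78.8, 67.2, 26.0, 172.4, 86.6, 93.6, 329.2 and 267.1. It was highest in the Nanog shRNA course, at 8727.9 on day 7, and in the Esrrb shRNA course it was still climbing at the end, at 3138.1 on day 6 and 6563.1 on day 7. The retinoic acid course stayed near the empty vector, with 43.2, 32.8, 153.9, 308.9, 226.5, 352.2 and 456.1 on days 0 to 6. Its days 4 to 6 overlapped those of the empty vector, which no other keratin did with retinoic acid. Krt7 also overlapped the empty vector on those days with Tbx3, Tcl1 and Mm343880 shRNA (lowest 324.2, 244.3 and 167.5, against up to 329.2).

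Over days 4 to 6 the order of the courses was read from the means of 3 days. For Krt8 it ran Nanog (21530 ± 7264), Sox2 (19429 ± 1053), Oct4 (15857 ± 2245), Esrrb (12659 ± 6415), Mm343880 (9537 ± 6692), Tbx3 (6790 ± 5105) and Tcl1 shRNA (4832 ± 2725), retinoic acid (4714 ± 2164) and the empty vector (1563 ± 729; SD over 3 days). Every neighbour in that order overlapped the next in range except retinoic acid and the empty vector. That range holds the rise of a course over these days as well as its scatter, so overlap does not show that neighbours were alike. On each of days 4 to 6 Krt8 was higher with Esrrb than Mm343880 shRNA, and higher with Mm343880 than Tbx3 shRNA. The other overlapping neighbours changed places within these days. Single days of the Tbx3, Tcl1 and Mm343880 shRNA courses (day 4) also lay inside the range of the empty vector. Krt18 ran in the same order except that Sox2 shRNA came before Nanog shRNA and retinoic acid before Tcl1 shRNA. For Krt7 the same 3 knockdowns led (Nanog 5129 ± 3172, Sox2 4033 ± 1063 and Oct4 shRNA 2899 ± 204) and retinoic acid came last of the treated courses (345 ± 115), with 170 ± 138 in the empty vector. For Krt19 they led too (Nanog 9050 ± 6858, Sox2 8637 ± 2455 and Oct4 shRNA 7215 ± 638), and the Oct4 shRNA days did not overlap those of the next course, Esrrb shRNA (4123 ± 1204).

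The late difference is the gap between the fitted curve of a course and that of the empty vector, averaged over days 4 to 6, on the log2(signal + 63.1) scale, which understates the change of low signals. For Krt8 it was 3.91 with Nanog, 3.48 with Oct4, 3.74 with Sox2, 2.98 with Esrrb, 1.75 with Tbx3, 1.66 with Tcl1 and 2.40 with Mm343880 shRNA, and 1.69 with retinoic acid (SE 0.30 each). For Krt18 it was 4.32, 4.06, 4.38, 3.41, 2.33, 2.32, 2.65 and 2.54 in the same order (SE 0.24). The gap of Krt18 was therefore 2.32 or wider in every course (5.01-fold with Tcl1 shRNA, 20.8-fold with Sox2 shRNA). Krt19 had 4.81, 4.79, 5.03, 3.96, 3.19, 2.08, 2.72 and 3.11 (SE 0.46 or 0.47), wider than Krt7, Krt18 and Krt8 (probe set 1420647_a_at) in every course but Tcl1 shRNA. Krt7 had 4.44, 3.73, 4.28, 2.94, 2.28, 2.06 and 2.14 in the knockdowns (SE 0.37) and only 0.96 ± 0.37 with retinoic acid. Counted from the highest late difference of 14749 genes, Krt19 had rank 3 with Nanog, 2 with Oct4, 3 with Sox2, 2 with Esrrb, 2 with Tbx3, 15 with Tcl1 and 13 with Mm343880 shRNA, and rank 185 with retinoic acid. In the knockdowns the ranks of Krt18 lay between 5 and 14, those of Krt7 between 5 and 25 and those of Krt8 between 11 and 42. With retinoic acid Krt18 had rank 338, Krt8 rank 1041 and Krt7 rank 2556.

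**Figure D2:**
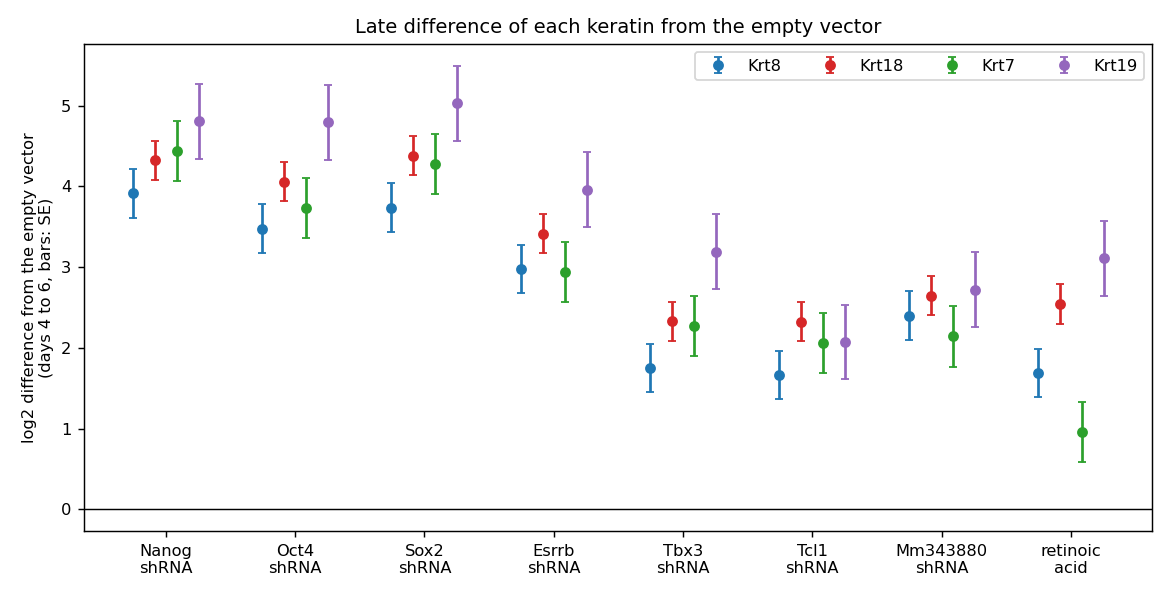
Late difference of each keratin from the empty vector (log2 scale, mean of the fitted curves over days 4 to 6) in the 8 other courses; points are fitted values and bars their SE. All points lie above 0, Krt19 reaches 5.03 with Sox2 shRNA, and Krt7 is at 0.96 with retinoic acid.

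All 4 keratins passed an adjusted p of 0.05 (limma) as higher in each of the 8 late comparisons. Nothing is read from that count, since the rise chose the genes. Over all genes, 11.1% were called higher and 9.56% lower with Nanog shRNA, 6.16% and 10.2% with Oct4, 11.2% and 11.5% with Sox2, and 7.01% and 4.94% with Esrrb shRNA. The shares were 5.53% higher and 5.27% lower with Tbx3, 4.65% and 3.80% with Tcl1, and 7.09% and 6.77% with Mm343880 shRNA, and 26.8% and 22.6% with retinoic acid. Quantile normalization moved the median of all genes by -0.26 (log2) with retinoic acid and by under 0.08 elsewhere, and the share of calls that were higher became 39.5% with retinoic acid and 43.5% with Nanog shRNA, against 54.2% and 53.6% without it. These 8 comparisons share the empty vector samples. The median late difference of the 4 keratins was 4.38 (Nanog), 3.89 (Oct4), 4.33 (Sox2), 3.20 (Esrrb), 2.30 (Tbx3), 2.07 (Tcl1) and 2.52 (Mm343880 shRNA), and 2.12 with retinoic acid, while the median of all genes lay between -0.10 and 0.05. For Mm343880 shRNA it moved when a day was left out of all courses, the empty vector included. It was 1.76 without day 5 and 3.90 without day 6. Day 6 was the last day of that course, so without it the curve was carried past the last sample.

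The 3 Krt8 probe sets gave the same order of the late differences at the top and different sizes. Probe sets 1423691_x_at and 1435989_x_at had late differences of 4.53 and 5.11 with Nanog shRNA, against 3.91 for 1420647_a_at, and 2.20 and 2.18 with retinoic acid, against 1.69. Their day 0 signals lay between 38.6 and 382.3, where 1420647_a_at had 339.8 to 867.9. The suffix x marks probe sets that can share probes with other transcripts, and levels of different probe sets cannot be compared, only their changes. Across samples the 3 probe sets had r between 0.976 and 0.985 with each other.

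The change within each course, from early (days 0 and 1) to late (days 4 to 6), was taken without the empty vector. It is therefore not a part of the late difference and can exceed it. Krt8 changed by 4.80, 4.19, 3.55, 4.57, 3.47, 2.57 and 3.59 (log2) in the Nanog, Oct4, Sox2, Esrrb, Tbx3, Tcl1 and Mm343880 shRNA courses and by 2.15 with retinoic acid (SE 0.34). Krt19 changed by 6.13 ± 0.52 with Nanog shRNA but by 3.07 ± 0.52 with Oct4 shRNA, whose day 0 was already high. All 4 genes were called higher within each of these 8 courses, where 5.92% (Nanog), 4.07% (Oct4), 4.24% (Sox2), 4.72% (Esrrb), 3.37% (Tbx3), 1.57% (Tcl1), 5.30% (Mm343880 shRNA) and 17.8% (retinoic acid) of all genes were called higher. Again nothing is read from the count. With retinoic acid the median change of the 4 was 2.56, and 3.44 when day 0 was left out.

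In the empty vector course the fitted change was also above 0 for all 4 genes: 1.38 ± 0.27 for Krt18, 1.14 ± 0.34 for Krt8, 0.87 ± 0.52 for Krt19 and 0.71 ± 0.42 for Krt7 (log2 ± SE). In raw means of days 4 to 6 over days 0 and 1 this was 3.0-fold for Krt18, 2.45-fold for Krt8, 4.10-fold for Krt19 and 2.33-fold for Krt7. These Krt8 values are those of probe set 1420647_a_at, and the other Krt8 probe sets rose more. The fitted change was 2.74 ± 0.44 for 1423691_x_at and 2.28 ± 0.47 for 1435989_x_at, and the raw means rose 13.4-fold and 11.6-fold. Their means of days 0 and 1 were 55.15 and 44.45, under the 63.1 added before taking logs, so low signals set these raw folds. The highest day was day 6 for Krt8 (2389.1), Krt18 (2294.2) and Krt7 (329.2) and day 7 for Krt19 (652.4), and the Krt19 samples of days 1, 3 and 5 read 37.3, 47.7 and 56.5. Of the 4 keratins 1 was called (Krt18), where 0.461% of all genes were called higher, and nothing is read from that count either. The late differences above are therefore gaps to a control whose own mean keratin signals were higher late than early, and the median change of the 4 in the empty vector moved to 1.49 without day 5, against 1.0 with all days.

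The step between days 4 and 5 was looked at after the values were seen. From day 4 to day 5 Krt8 went up 7.59-fold with Mm343880, 6.32-fold with Tbx3, 3.96-fold with Tcl1 and 2.94-fold with Esrrb shRNA, against 1.27-fold in the empty vector. Counting genes higher by at least 2-fold on log2(signal + pseudocount), with 1 sample a day, the keratins numbered 4 of 4 with Mm343880 and Tbx3 shRNA and 3 of 4 with Tcl1 and Esrrb shRNA (Krt19 at 1.29-fold in both), against 0 of 4 in the empty vector. The count was 1 of 4 with Nanog shRNA, where Krt18, Krt7 and Krt19 stood just under at 1.91-fold to 2.0-fold, and 0 of 4 with Oct4 and Sox2 shRNA and with retinoic acid. Of all genes, 6.26% (Mm343880), 2.79% (Tbx3), 2.03% (Tcl1), 2.47% (Esrrb), 8.96% (Nanog), 4.14% (Oct4) and 3.45% (Sox2 shRNA) were higher by that much, 3.65% with retinoic acid, and 2.81% in the empty vector. Steps of that size were not limited to these days or courses. On the same scale, from day 5 to day 6 in the empty vector Krt8 went up 1.82-fold, Krt18 2.19-fold, Krt7 2.50-fold and Krt19 5.88-fold. From day 2 to day 3 with Nanog shRNA they went up 4.17-fold, 3.03-fold, 3.26-fold and 6.25-fold. Each step rests on 2 arrays and has no replicate check.

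**Figure D3:**
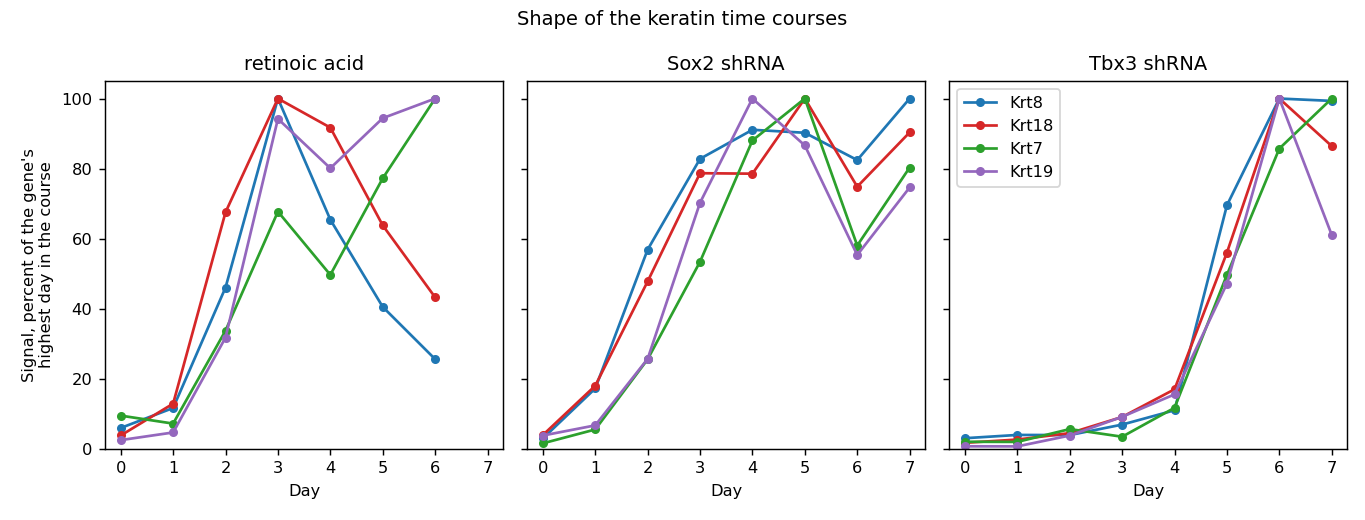
Keratin signal as a percentage of each gene's highest day in the course, against day, for retinoic acid, Sox2 shRNA and Tbx3 shRNA (1 sample per point). In retinoic acid Krt8 ends at 25.6% and Krt18 at 43.2% while Krt7 and Krt19 end at 100%; with Sox2 shRNA Krt8 passes 50% by day 2, and with Tbx3 shRNA Krt8 and Krt18 do so on day 5.

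Few of the other keratins were called. In this and the list paragraphs below, higher, lower, rose and fell refer to the late difference from the empty vector, unless a change within a course is named. Of 44 other keratins on the arrays, 25 passed the filter, and in the Nanog shRNA course none of the 25 passed an adjusted p of 0.05 (limma) in either direction, and 2 had an unadjusted p under 0.05. Krt20, a type I keratin of gut epithelium, rose with Sox2 shRNA (290 ± 50.9 against 112 ± 89.3 in the empty vector, log2 difference 1.02 ± 0.31, adjusted p = 0.0122), and Krt88 (log2 difference 1.0) was the only other keratin called higher there, a call lost in 13 of 19 alternatives. Krt17 is a keratin of basal and stressed epidermis. It was lower than the empty vector with Sox2 (-2.10), Oct4 (-1.78), Tcl1 (-1.32) and Mm343880 shRNA (-0.95) and with retinoic acid (-2.11), all past the threshold. Its highest signal of all samples was in the empty vector on day 4 (480.4, against a median of 115). Within the courses Krt17 was called lower only with retinoic acid. Krt42 was lower in 6 of the 8 comparisons (log2 difference -0.68 to -0.37). In the clusters beside the members, Krt79 had late differences between -0.35 and 0.22 with none past the threshold, and Krt78 was called higher with retinoic acid alone (1.28). The median late difference of the 25 other keratins lay between -0.31 (Esrrb shRNA) and 0.04 (Nanog shRNA). Within the empty vector 0 of the 25 passed (limma), and 1 had an unadjusted p under 0.05.

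Among 24 genes for proteins that keratin filaments attach to or that act on them, 20 were tested. Sfn (stratifin, a 14-3-3 protein that binds keratins) and Dsp (desmoplakin, which ties keratin filaments to desmosomes) were each called in at least 7 of the 8 late comparisons. Sfn was 1567 ± 62.0 with Nanog and 2101 ± 1376 with Mm343880 shRNA, against 289 ± 138 in the empty vector (SD over 3 days). It was called higher in all 7 knockdown courses (log2 1.61 to 2.50) and lower with retinoic acid (24.2 ± 19.2, log2 -1.95 ± 0.37, adjusted p = 1.85e-05, limma). Dsp was called higher with Nanog (2.07), Oct4 (1.16), Sox2 (1.64), Esrrb (1.63), Tbx3 (1.60) and Mm343880 shRNA (1.19) and with retinoic acid (2.30), and its value with Tcl1 shRNA was 0.44 (adjusted p = 0.299, limma). The counts called higher and lower were 7 and 0 with Nanog, 3 and 0 with Oct4, 10 and 0 with Sox2, 5 and 0 with Esrrb, 2 and 0 with Tbx3, 2 and 0 with Tcl1, and 5 and 0 with Mm343880 shRNA, and 7 and 5 with retinoic acid. Dsc2, a desmosomal cadherin, was among those higher with Nanog (1.19), Oct4 (1.33), Sox2 (1.79) and Esrrb shRNA (0.89) and with retinoic acid (1.48), and its Esrrb shRNA call was lost in 11 of 19 alternatives. Jup and Plec, the linkers plakoglobin and plectin, were called in none of the 8 late comparisons (Jup -0.30 to 0.57, Plec -0.08 to 0.43). The list's median difference was highest with Nanog shRNA (0.47, all genes 0.04) and lowest with retinoic acid (-0.07, all genes 0.05). Within the empty vector none passed (limma), and 2 had an unadjusted p under 0.05.

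Of 16 other intermediate filament genes listed, 14 were tested, and at most 3 were called higher in any late comparison. Lmna (lamin A/C, of the nuclear lamina) was called higher with Oct4 (1.08), Sox2 (1.64), Esrrb (1.12) and Mm343880 shRNA (1.51). Vim (vimentin, the filament of mesenchymal cells) fell with Nanog shRNA (4296 ± 2233 against 7707 ± 1175 in the empty vector, log2 -0.97) and was higher with Esrrb (1.08) and Sox2 shRNA (0.58) and with retinoic acid (1.40). Counts higher and lower were 0 and 2 (Nanog), 1 and 4 (Oct4), 3 and 2 (Sox2), 2 and 1 (Esrrb), 1 and 1 (Tbx3), 1 and 0 (Tcl1), 2 and 0 (Mm343880 shRNA) and 2 and 6 (retinoic acid), with none within the empty vector (limma), where 2 had an unadjusted p under 0.05. In the Tbx3 and Tcl1 shRNA courses the filament gene called higher was Ina (internexin, of neurons), at 0.74 and 0.89. With retinoic acid Nefh (-2.0) and Des (-1.75) were furthest below the empty vector. Within that course Nefh was called lower and Des was not.

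Simple epithelial membrane genes had calls in both directions in most knockdowns and only lower calls with retinoic acid, a difference that was not tested itself. Cldn7 (claudin 7, of tight junctions) was called higher in all 7 knockdown courses, between 0.88 (Mm343880) and 1.99 (Nanog shRNA), and lower with retinoic acid (-0.94), and it was also the 1 gene of the list called within the empty vector (log2 change 1.32 ± 0.24, adjusted p = 0.00306, limma). That call was lost without day 0, with no spline and with the empty vector fitted alone. Of 18 tested, 7 were higher and 1 lower with Nanog, 8 and 3 with Oct4, 6 and 4 with Sox2, 7 and 0 with Esrrb, 8 and 1 with Tbx3, 3 and 1 with Tcl1, and 3 and 2 with Mm343880 shRNA, and 0 and 13 with retinoic acid. Cldn3, Cldn4 and Cldn6, also tight junction claudins, accounted for many of the calls: Cldn3 was 2.61 with Oct4 and Cldn6 1.75 with Tbx3 shRNA. Lgals3 (galectin 3) rose with Nanog (2.39) and Sox2 shRNA (2.10) and fell with Tbx3 shRNA (-0.58) and retinoic acid (-2.56). Cdh1 (E-cadherin), which ES cells already express, was called in no knockdown course except Oct4 shRNA (-0.47), and it fell with retinoic acid (-2.37). The median of the list was 0.59 with Tbx3 shRNA and -1.05 with retinoic acid. Most of these genes were thus lower than the empty vector with retinoic acid, where the keratins were higher. The empty vector's own list median changed by 0.41 from early to late. Within the retinoic acid course the median change was -0.41, with 0 of the 18 genes called higher and 7 lower. Of all genes, 17.8% were called higher and 14.1% lower within that course.

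**Figure D4:**
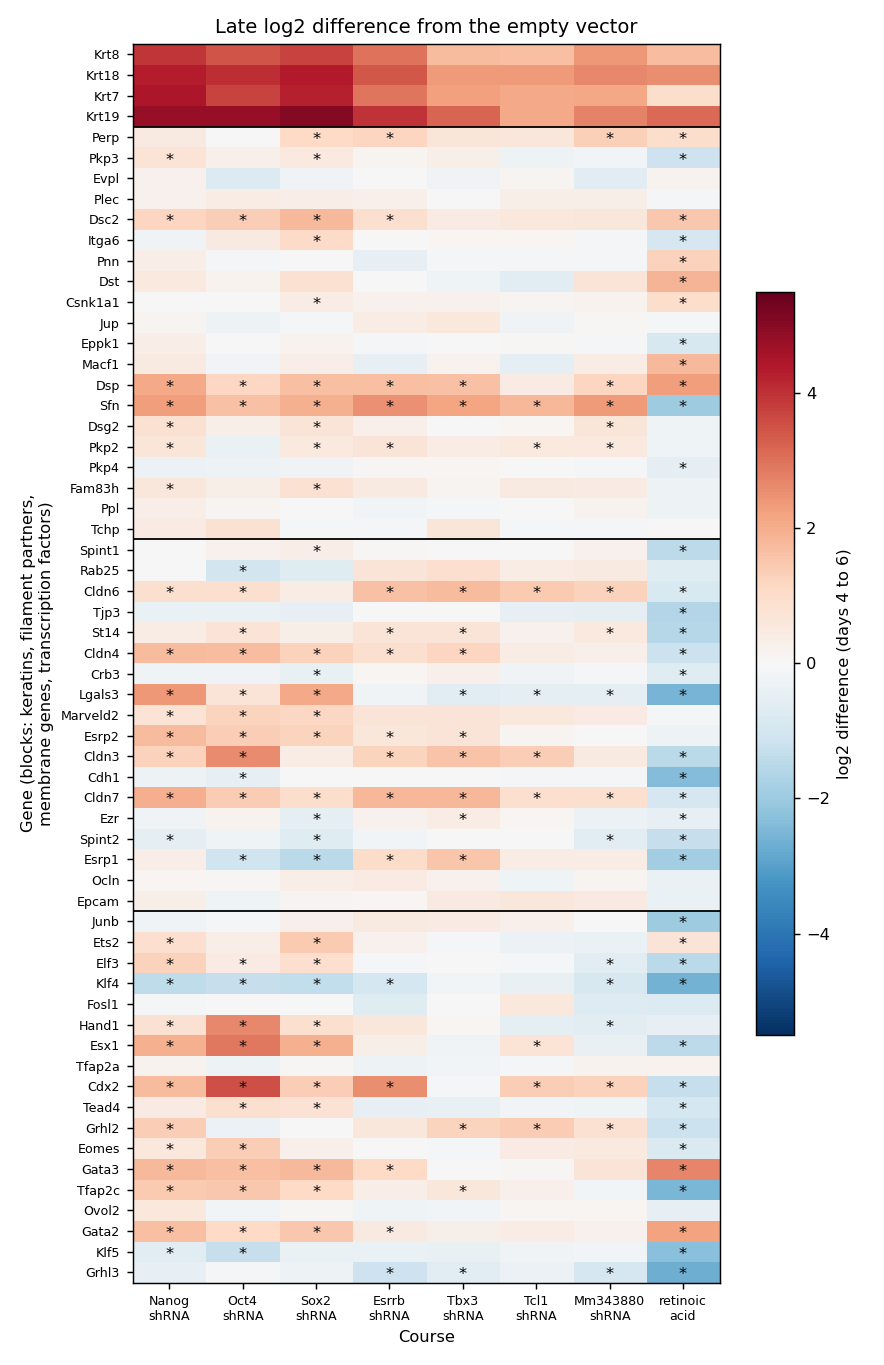
Late log2 difference from the empty vector (colour) of the 4 keratins and of all tested genes of 3 lists, by course; stars mark list genes past an adjusted p of 0.05 (limma), and the keratins carry none because their rise chose them. The Sfn and claudin rows are red in the knockdown columns and blue under retinoic acid, and the keratin rows are red in every column.

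Transcription factors of epithelia and trophectoderm were called higher most often in the Nanog, Oct4 and Sox2 shRNA courses. Of 18 tested, 10 were higher and 2 lower with Nanog, 9 and 2 with Oct4, 9 and 1 with Sox2, 3 and 2 with Esrrb, 2 and 1 with Tbx3, 3 and 0 with Tcl1, and 2 and 4 with Mm343880 shRNA, and 3 and 11 with retinoic acid. Cdx2, the factor that specifies trophectoderm, was 2052 ± 351 with Oct4 and 1098 ± 628 with Esrrb shRNA, against 122 ± 79.5 in the empty vector, and its log2 difference was -0.07 with Tbx3 shRNA (adjusted p = 0.951, limma) and -1.25 with retinoic acid. Gata3, also a trophectoderm factor, was called higher with Nanog (1.77), Oct4 (1.64), Sox2 (1.76) and Esrrb shRNA (1.10) and with retinoic acid (2.67). Klf4 and Klf5, shared by ES cells and epithelia, fell most with retinoic acid (-2.59 and -2.31). Grhl2, which maintains epithelial junctions, was higher with Nanog (1.36), Tbx3 (1.23), Tcl1 (1.38) and Mm343880 shRNA (0.84). Over the 5 lists together, the genes called with Mm343880 shRNA numbered 19, but 4 without day 5 and 8 without day 6, and with retinoic acid 52, but 25 without day 6. Both courses ended on day 6, so without it their curves were carried past the last sample. Leaving out day 5 also took the calls to 12 with Esrrb, 10 with Tbx3 and 6 with Tcl1 shRNA, against 21, 17 and 12 with all days.

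Markers of other cell types moved with the keratins in some courses and not in others. In bulk RNA, more cells of a type and more RNA per cell cannot be told apart. Of 8 tested trophectoderm markers, 8 were called higher with Nanog, 8 with Oct4, 7 with Sox2, 3 with Esrrb, 1 with Tbx3, 2 with Tcl1 and 1 with Mm343880 shRNA, and 2 with retinoic acid, where 5 were lower. In the knockdowns the only lower calls were Ascl2 with Tbx3 shRNA and Hand1 with Mm343880 shRNA, the latter lost in 11 of 19 alternatives. The summed signal of the list over days 4 to 6 was 8931 to 27317 with Nanog, 15727 to 17895 with Oct4, 10344 to 12758 with Sox2, 3259 to 8057 with Esrrb, 2838 to 4573 with Tbx3, 3105 to 4578 with Tcl1 and 3163 to 3600 with Mm343880 shRNA, and 1914 to 2200 with retinoic acid, against 3105 to 3289 in the empty vector. Plac1, a placental gene, had late differences of 3.81 (Nanog), 2.67 (Oct4) and 3.69 (Sox2 shRNA), but 0.08 with Tbx3, 0.04 with Tcl1 and 0.22 with Mm343880 shRNA, none of these 3 past the threshold. Krt8 in those last 3 courses had late differences of 1.75, 1.66 and 2.40. Other markers of the list were called higher there. They were Cdx2 with Tcl1 (1.37) and Mm343880 shRNA (1.28), Esx1 with Tcl1 (0.75) and Tfap2c with Tbx3 shRNA (0.63).

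Of 10 tested extraembryonic endoderm markers, 4 were called higher with Nanog shRNA and 5 with retinoic acid, and at most 1 in the other courses. Called lower were Lama1 with Oct4, Sox2 and Esrrb shRNA, Gata6 with Esrrb and Tbx3 shRNA, and Amn with retinoic acid. Their sum was 5819 to 6548 with Nanog shRNA, 1870 to 4554 in the other 6 knockdowns and 11843 to 14497 with retinoic acid, against 2826 to 3530 in the empty vector. Gata6, an early endoderm factor, was 5441 ± 1852 with retinoic acid, against 309 ± 28.7 in the empty vector, and was lower with Esrrb (-0.90) and Tbx3 shRNA (-0.74). The 8 ES cell markers summed to 1313 to 3124 over days 4 to 6 with retinoic acid, to 30709 to 51717 with Oct4 shRNA, to 49739 to 87111 in the Nanog, Sox2, Esrrb, Tbx3 and Tcl1 shRNA courses and to 82250 to 105495 with Mm343880 shRNA, against 85180 to 102235 in the empty vector. Thus the ES marker sum with Mm343880 shRNA overlapped that of the empty vector, while 3 of the 8 markers (Zfp42, Nanog and Esrrb) were called lower there. The count called lower was 7 with Nanog, 8 with Oct4, 8 with Sox2, 3 with Esrrb, 1 with Tbx3 and 2 with Tcl1 shRNA, and 8 with retinoic acid. The mesothelial markers Wt1 and Upk3b were called higher with retinoic acid (4.78 and 3.92) and in none of the 7 knockdowns, and their sum was 5158 to 8350 with retinoic acid and 149 to 405 in the knockdowns, against 213 to 270 in the empty vector. Of 6 tested fibroblast markers 4 were higher with retinoic acid (sum 7111 to 13601, against 1247 to 1559 in the empty vector). Fibroblast markers were also called higher in the Sox2 (2 of 6), Esrrb (3 of 6) and Tbx3 shRNA courses (1 of 6), with sums of 1224 to 4532 over the knockdowns, and Thy1 was called lower in the Nanog, Oct4, Sox2, Esrrb and Tbx3 shRNA courses and with retinoic acid. None of the 34 tested markers passed the threshold within the empty vector (limma), where 6 had an unadjusted p under 0.05, and no tested marker was listed at 0. The part of these cells or genes in the keratin values was not tested.

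The genes whose pattern over the 70 samples was most like the mean of the 4 standardised keratins were named by their correlation. They were Lgals1 (r = 0.93), Reep5 (0.93), Igf2 (0.92), Vamp8 (0.90), Elovl1 (0.90), Cryab (0.89), Csrp1 (0.88), Tmbim1 (0.88), Septin4 (0.88) and Gsn (0.88). Over all genes the median r was 0.01, and 56 of 14745 exceeded 0.8. Lgals1, Reep5 and Igf2 were also the nearest 3 to Krt8, to Krt18 and to Krt19, whereas Krt7 was nearest to Septin4 (0.91), Cstb (0.89) and 3830417A13Rik (0.89). Igf2, a growth factor, spanned signals of 92.4 to 29009.6 and Lgals1 (galectin 1) 3223.1 to 40865.8. With the retinoic acid course left out, 4 of these 10 genes stayed among the nearest 10, and likewise 4 after course and day means were taken out. The samples share courses and array scaling, so the values are descriptions.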

How the data were processed

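The deposited tables hold 1 intensity per probe set, not logged, for the A and B arrays of 70 RNA samples, computed by the authors with MAS5 per the submitters' processing notes (no version given in the sources used here). The 100 control probe sets shared by both arrays had the same trimmed mean on every array. Probe sets with a signal above the table median on at least 3 arrays were kept (32992), and log2(signal + 20th percentile of the table, 63.1 on A and 21.8 on B) was fitted with limma 3.58.1 in R 4.3.3. Each course had its own spline of day (natural cubic, 3 degrees of freedom), leaving 34 residual degrees of freedom, followed by eBayes with trend, and p-values were adjusted by Benjamini-Hochberg over 14749 genes, each by its probe set with the highest mean rank. The fit was also run on simulated data whose scatter was independent from sample to sample. That run does not bear on the lack of a second transduction. Late differences average days 4 to 6. As days are not separate transductions, p-values measure scatter around the curves.

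The members and the gene lists were chosen with earlier results of these data known. Genes were named by this rule: all probe sets of the 4 keratins; in each list and comparison up to 4 called genes with the largest late differences and up to 2 others, followed across courses; the 10 genes nearest to the keratins and the 3 nearest to each; and the shRNA targets. The step from day 4 to day 5 and the fit with day as a block were added after the values were seen. Probe set names came from GEO's platform annotation. Of the lists, 37 entries were not tested because no probe set passed the filter or was named. The alternatives tried were other pseudocounts, quantile normalization, all probe sets of a gene, other splines, the courses compared alone, no filter, each day left out of all courses in turn, and eBayes run without a trend.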

Additional observations from a re-analysis of the deposited data

Results flagged for a closer look

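Of 54 series of daily signals (6 keratin probe sets in 9 courses), 1 had a day set apart from the rest: Krt8 probe set 1423691_x_at in the Sox2 shRNA course was lowest on day 0, at 382, with 53.0% of the log range between it and the next day. Chance sets apart about 1 series in 20, and days of a course are not replicates.

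For 21 list genes the retinoic acid course and at least 1 knockdown course were called in opposite directions, with that sign on each of days 4 to 6, and the difference between courses was not tested. Cdx2 had a log2 late difference of -1.25 with retinoic acid and 1.28 to 3.54 in 6 knockdowns, and Sfn -1.95 with retinoic acid and 1.61 to 2.50 in 7. The claudins opposed likewise: Cldn3 at -1.50 with retinoic acid (5 knockdowns higher), Cldn4 at -1.17 (5), Cldn6 at -0.85 (5) and Cldn7 at -0.94 (6). Among epithelial membrane and adhesion genes, retinoic acid gave -1.90 for Esrp1 (higher in 2 knockdowns), -0.43 for Ezr (1), -0.91 for Itga6 (1), -2.56 for Lgals3 (3), -1.43 for Spint1 (1) and -1.56 for St14 (4). Among transcription factors it gave -1.49 for Elf3 (3), -0.80 for Eomes (2), -1.44 for Esx1 (4), -1.16 for Grhl2 (4), -0.97 for Tead4 (2) and -2.50 for Tfap2c (4). Of the other intermediate filaments, Des was at -1.75 with retinoic acid (higher in 1 knockdown), Ina at -0.61 (2) and Vim at 1.40 with retinoic acid, against -0.97 with Nanog shRNA.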

How the results depend on the processing

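Every late difference and within-course change of the 4 keratins kept its sign under each alternative run on it, 19 for late differences and 18 for changes. With day as a replicate block (a shift of each day shared by all courses, chosen after seeing the data), the median late differences were between 2.07 (Tcl1) and 4.38 (Nanog shRNA), 12 to 52 list genes and 1495 to 7371 genes passed, no list gene lost its call, and no count moved by over 1.5 times. That shift was limited to the part the splines could not take. In courses run to day 7 the late differences therefore could not move, and their staying the same is no check. Only the scatter around the curves, and with it the calls, could change there. A day is 1 pair of arrays in each course, so values at the ends of a course lean on single samples. A day left out was taken from every course at once, the empty vector included, so a shift cannot be assigned to 1 sample. Low MAS5 signals set the size of the Krt7 and Krt19 folds. The cause of the shifts below was not tested.

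With the pseudocount at the table median, the median late difference of the keratins was 3.79 (Nanog), 3.84 (Sox2) and 1.46 (Tcl1 shRNA), and the median change within the course 3.74 (Esrrb), 3.02 (Tbx3), 2.05 (Tcl1) and 2.71 (Mm343880 shRNA). With pseudocount 1 the change was 3.66 with Tcl1 shRNA. With the mean of all probe sets it was 5.49 (Nanog), 4.29 (Tbx3) and 3.39 (Tcl1 shRNA). Leaving out 1 day at a time gave late medians of 3.85 to 4.59 (Sox2), 1.79 to 2.57 (Tbx3), 1.40 to 2.39 (Tcl1) and 1.76 to 3.90 (Mm343880 shRNA). The changes within the course ran over 3.59 to 4.28 (Oct4), 3.30 to 4.12 (Tbx3), 2.54 to 3.47 (Tcl1), 3.11 to 4.65 (Mm343880 shRNA), 2.31 to 3.44 (retinoic acid) and 0.78 to 1.49 (empty vector).

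With no spline, 25 (Sox2), 11 (Tbx3), 6 (Tcl1) and 9 (Mm343880 shRNA) list genes passed, against 39, 17, 12 and 19, and 32 passed with Esrrb shRNA with a spline of 2 degrees of freedom, against 21. Over all genes, no spline gave 1059 (Esrrb), 853 (Tbx3), 659 (Tcl1) and 1020 (Mm343880 shRNA), against 1763, 1593, 1246 and 2043. Without 1 day, list genes passing ranged over 12 to 22 (Esrrb), 10 to 17 (Tbx3), 6 to 13 (Tcl1), 4 to 20 (Mm343880 shRNA) and 25 to 52 (retinoic acid). All genes passing ranged over 925 to 1774, 601 to 1626, 591 to 1277, 517 to 2087 and 3867 to 7277 in the same order. Within the empty vector 1 list gene and 106 genes passed. Of the list 2 passed with the pseudocount at the table median and with quantile normalization, 0 with no spline and with that course alone, and 0 to 5 without 1 day. Of all genes 23 passed with no spline, 48 with eBayes without trend, 9 with that course alone and 15 to 395 without 1 day. Of 4199 repeats of single list genes called in a late comparison, 382 lost the call and 0 changed sign.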
